A study of Mus musculus with 10 samples.

Results

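The messenger RNA of 10 genes of the p53 network was followed through 10 RNA-sequencing libraries of mouse cells. The genes, taken by name from the 54532 genes of the deposited tables, were Trp53, its head-to-head neighbour Wrap53, the paralogues Trp63 and Trp73, the regulators Mdm2, Mdm4, Usp7 and Ppm1d, and the binding proteins Trp53bp1 and Trp53bp2. Each matched 1 gene, and all 10 passed the low-count filter in each of the 10 comparisons made. All cells were labelled strain 129SV. Epiblast stem cells (EpiSC), which are cultured from the post-implantation epiblast, gave 2 libraries labelled p53-negative haploid (lines haEpi1 and haEpi5), 1 labelled p53-negative diploid, and 2 labelled wild-type diploid, 1 male and 1 with a title cut off at fema, read here as female. Epiblast-like cells (EpiLC), the short-lived state that embryonic stem cells pass through when they leave the naive state, gave 1 library labelled p53-negative haploid and 1 labelled wild-type haploid. Embryonic stem cells (ESC) gave 1 library labelled wild-type haploid and 1 labelled wild-type diploid, and mouse embryonic fibroblasts (MEF) gave 1 library labelled wild-type diploid. The titles of the p53-negative diploid EpiSC and haploid EpiLC read p53KO, and p53-KO is used below for all 4 libraries, whose genotype label gives P53 with a minus sign. The series design text mentions triplicates, and the values below come from these 10 libraries. No source used here says which part of Trp53 was targeted, by what means, or whether a library comes from 1 clone.

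The counts of a library summed to 15862113 at the least and 18814003 at the most. Levels are given in FPKM, the deposited counts scaled by gene length and by library, which allows genes to be compared with each other, and 95% intervals are Poisson intervals that cover counting error only. Pluripotency markers summed to 585 to 772 FPKM in EpiSC, 816 to 1190 FPKM in EpiLC, 741 to 1120 FPKM in ESC and 3.52 FPKM in MEF. The 8 naive ESC markers summed to 4.29 to 39.2 FPKM in EpiSC and 1010 to 2330 FPKM in ESC. In each EpiLC library they summed to 1290 FPKM, nearly all of it Dppa5a (1100 FPKM in the p53-KO EpiLC and 1260 FPKM in the wild-type EpiLC). The EpiLC libraries differed in the other naive markers: Zfp42, Esrrb and Tbx3 stood at 74.4, 30.2 and 6.32 FPKM in the p53-KO EpiLC and at 14.1, 2.77 and 0.0387 FPKM in the wild-type EpiLC. In ESC they stood at no less than 97.6, 59.9 and 43.4 FPKM. Tfcp2l1, Klf4 and Prdm14 were also lower in both EpiLC libraries than in either ESC. Nr0b1 went the other way, at 65.8 FPKM in the p53-KO EpiLC against 15.6 and 49.3 FPKM in the haploid and diploid ESC. It stood at 5.46 FPKM in the wild-type EpiLC. Dppa5a in both EpiLC libraries lay between the haploid ESC (696 FPKM) and the diploid ESC (1630 FPKM). Post-implantation markers summed to 246 to 420 FPKM in EpiSC, to 251 FPKM in the p53-KO EpiLC and 850 FPKM in the wild-type EpiLC, and to 66.6 to 70.0 FPKM in ESC. Their sum of 302 FPKM in MEF was mostly Sfrp2 (287 FPKM), while the epiblast factors Otx2 (listed at 0) and Pou3f1 (0.172 FPKM) were absent or near it.

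The p53 protein, encoded by Trp53, is a transcription factor that is held at a low level in unstressed cells and accumulates after DNA damage and other stress, when it turns on genes for cell-cycle arrest and cell death. Its level is set mainly after translation: Mdm2 is the ubiquitin ligase that marks p53 for degradation and is itself a p53 target gene, which closes a feedback loop, and Mdm4 is a related protein that binds p53 and restrains it. Levels of Trp53 RNA therefore do not give the activity of the protein.

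Trp53 and Wrap53 start close together on opposite strands. In the deposited annotation Trp53 lies on the plus strand at chr11:69580359-69591873 (mm10) and Wrap53 on the minus strand at chr11:69561758-69580255. The spans do not overlap: 103 bases separate them, and the exons of both genes in GENCODE vM21, which has the same spans and exon lengths for all 10 genes, share 0 bases. Reads of one gene could therefore be counted for the other only where transcripts run past these annotated ends. Whether reads were counted by strand is given in no source used here. RefSeq places 1 start of Wrap53 at 69580250 and another 1001 bases further into the gene, at 69579249, and the start of Trp53 at 69580359. The RefSeq windows (GRCm38.p6, the assembly that mm10 names) of 250 bases before to 50 bases after the facing starts are shown because they hold the shared upstream stretch of a gene whose level varied 182-fold over the libraries and of one whose level varied 3.83-fold. Capitals mark the 108 bases between both starts (chr11:69580251-69580358), the same stretch read on either strand.
Trp53, chr11:69580109-69580408, plus strand: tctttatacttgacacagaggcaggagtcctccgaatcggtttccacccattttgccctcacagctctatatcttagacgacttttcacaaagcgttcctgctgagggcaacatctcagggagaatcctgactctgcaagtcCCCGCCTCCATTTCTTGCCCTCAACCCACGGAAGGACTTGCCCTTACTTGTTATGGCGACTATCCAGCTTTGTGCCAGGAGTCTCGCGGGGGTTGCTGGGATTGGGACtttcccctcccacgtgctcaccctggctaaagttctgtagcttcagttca
Wrap53, chr11:69580201-69580500, minus strand: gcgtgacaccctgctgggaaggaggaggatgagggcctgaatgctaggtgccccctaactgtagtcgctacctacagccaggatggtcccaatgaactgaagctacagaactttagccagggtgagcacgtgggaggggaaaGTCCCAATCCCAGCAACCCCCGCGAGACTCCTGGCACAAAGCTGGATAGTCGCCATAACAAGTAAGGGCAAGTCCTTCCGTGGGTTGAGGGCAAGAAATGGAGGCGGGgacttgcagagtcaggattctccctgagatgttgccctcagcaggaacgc
The windows share 208 bases, identical after reverse complementing, and the 108 bases between the starts are 58.3% G or C. Of the 32851 promoter windows in the RefSeq table, 10.8% overlap a window on the opposite strand. The E-box CACGTG, a palindrome that reads the same on either strand, occurs 1 time in each of these windows, at chr11:69580369-69580374, which begins 10 bases downstream of the Trp53 start and lies outside the capitals. It occurs in 7.15% of all windows. A match is a description of these letters and not of binding.

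Trp53 RNA did not sort the libraries by their p53 label. Among libraries labelled p53-KO, Trp53 stood at 12.1 FPKM in haEpi1, 14.8 FPKM in haEpi5, 0.514 FPKM in the diploid EpiSC and 8.0 FPKM in the haploid EpiLC. Among wild-type libraries it stood at 8.89 FPKM in the female EpiSC, 47.4 FPKM in the male EpiSC, 87.4 FPKM in the haploid EpiLC, 7.14 FPKM in the haploid ESC, 93.4 FPKM in the diploid ESC and 33.0 FPKM in MEF. Of the 4 libraries labelled p53-KO, 1 lay below every wild-type pluripotent library and all 4 lay below the wild-type pluripotent median of 47.4 FPKM. All 4 also lay below the wild-type pluripotent median for Trp73, Mdm4, Ppm1d and Trp53bp1, and over all genes this was not counted. Both haploid p53-KO EpiSC lines had more Trp53 RNA than the wild-type female EpiSC and the wild-type haploid ESC.

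**Figure D1:**
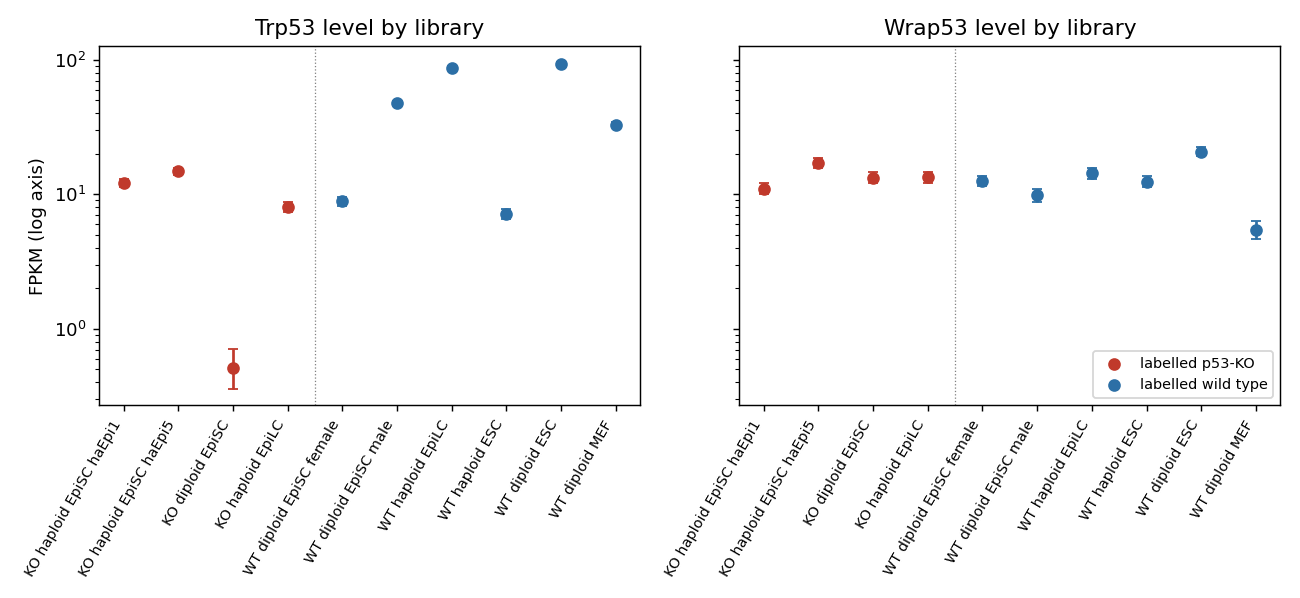
Trp53 (left) and Wrap53 (right) in FPKM on a log axis, 1 point per library with its 95% Poisson interval, libraries labelled p53-KO in red to the left of those labelled wild type in blue. Trp53 spans 0.514 to 93.4 FPKM with the labels interleaved, whereas Wrap53 stays between 5.42 and 20.8 FPKM.

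In order of level, the diploid p53-KO EpiSC was lowest, with 35 counts (95% interval 0.358 to 0.715 FPKM). The haploid ESC, the haploid p53-KO EpiLC and the female EpiSC followed at 7.14, 8.0 and 8.89 FPKM, and the intervals of neighbours in this trio overlapped. Those of its ends did not (6.56 to 7.75 and 8.23 to 9.59 FPKM). Every later step, to haEpi1, haEpi5, MEF, the male EpiSC, the wild-type EpiLC and the diploid ESC, was larger than counting error. The haploid p53-KO EpiSC averaged 13.4 ± 1.88 FPKM and the wild-type diploid EpiSC 28.2 ± 27.2 FPKM (SD, n = 2 each), so that the wild-type replicates differed by more than the group means did.

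RNA of fibroblast markers was present at a low level in several libraries. The 10 fibroblast markers summed to 117 FPKM in haEpi1, 216 FPKM in haEpi5, 133 FPKM in the diploid p53-KO EpiSC and 15.7 FPKM in the p53-KO EpiLC, which is 1.51%, 2.79%, 1.72% and 0.203% of the MEF sum of 7740 FPKM. In the wild-type libraries they summed to 101 FPKM (1.31%) in the female EpiSC, 50.5 FPKM (0.652%) in the male EpiSC, 6.26 FPKM (0.0809%) in the EpiLC, 135 FPKM (1.75%) in the haploid ESC and 3.42 FPKM (0.0442%) in the diploid ESC. No marker was listed at 0 in 7 of these 9 libraries, while 2 were at 0 in the wild-type EpiLC and 4 in the diploid ESC. The same share of the MEF Trp53 level comes to 0.569 FPKM in the diploid p53-KO EpiSC, where Trp53 itself stood at 0.514 FPKM. That share rests mainly on collagens: Col1a1 stood at 76.3 FPKM in the diploid p53-KO EpiSC and 3880 FPKM in MEF, but Lum at 0.0971 FPKM in the diploid p53-KO EpiSC and 106 FPKM in MEF. In the other 8 pluripotent libraries Trp53 was 12.3 to 6390 times as high as that share, with 24.2 times in haEpi1 and 16.0 times in haEpi5. These multiples use the same collagen-weighted share, from which single markers differed widely. In haEpi1 and haEpi5, Dcn stood at 11.4 and 19.4 FPKM (75.6 FPKM in MEF) and Twist2 at 1.96 and 5.36 FPKM (6.58 FPKM in MEF). The collagens and Postn lay below that share of their MEF level in both lines. The part of fibroblast RNA in the Trp53 value of the diploid p53-KO EpiSC, or of any other library, was not tested. In bulk RNA, fewer cells that carry a transcript and less of it per cell cannot be told apart.

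Tests of the p53 label used edgeR's quasi-likelihood test on the counts, with Benjamini-Hochberg adjustment over all genes tested and a threshold of 0.05. Nothing passed in the comparison of haploid p53-KO with wild-type diploid EpiSC (0.0% of 18153 genes tested), in that of diploid p53-KO with wild-type diploid EpiSC (0.0% of 18153), or in the additive fit of the 9 pluripotent libraries (0.0% of 18659). No member passed. At an unadjusted p under 0.05 there were 641, 700 and 572 genes, and DESeq2 called 22, 135 and 25 genes in the same comparisons, while limma on log2(FPKM + 1) called 0 in each. In these comparisons p53 label, ploidy and line change together or rest on single libraries, and the comparisons among EpiSC share their wild-type libraries.

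In the diploid p53-KO EpiSC, Trp53 had a log2 fold change of -5.77 ± 1.17 (SE) against the wild-type diploid EpiSC (unadjusted p = 0.00207 and adjusted p = 0.835 by edgeR). It passed with DESeq2 (adjusted p = 5.33e-10) and with edgeR without the low-count filter (adjusted p = 1.79e-12). These p-values rest on 1 p53-KO library whose spread is borrowed from the other EpiSC groups. They do not measure variation between diploid p53-KO lines. The log2 fold change was -6.52 without the female and -4.10 without the male wild-type EpiSC. Either fit keeps 1 wild-type library, so its spread comes from haEpi1 and haEpi5 alone, and a call there cannot show robustness. In haploid p53-KO EpiSC the log2 fold change was -1.06 ± 0.68 (SE, edgeR adjusted p = 0.976). Its sign rested on 1 library: without the male wild-type EpiSC it was 0.60, and without the female it was -1.81. Over the 9 pluripotent libraries, with cell type and ploidy as covariates, it was -3.06 ± 1.89 (SE, edgeR adjusted p = 1), and it was -0.91 without the diploid p53-KO EpiSC and -4.62 without the haploid p53-KO EpiSC lines, also short of the threshold.

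The libraries labelled p53-KO differed from each other in Trp53 more than from some wild types. The haploid p53-KO EpiSC stood at 12.1 and 14.8 FPKM, against 0.514 FPKM in the diploid p53-KO EpiSC, a log2 fold change of 4.70 ± 1.12 (SE, unadjusted p = 0.00457, edgeR adjusted p = 0.634). No gene passed in this comparison (0.0% of 18153 tested, 1007 at an unadjusted p under 0.05, 268 by DESeq2 and 0 by limma). Trp53 was among the genes DESeq2 called (adjusted p = 9.34e-07), and with edgeR it passed without the low-count filter (adjusted p = 5.51e-10). The single diploid p53-KO library again borrows its spread from the other groups. The wild-type EpiSC enter this fit only through the estimate of spread, and leaving 1 of them out removes their pair from that estimate. For Trp53 the p53-KO effect in haploid EpiLC was 2.33 ± 1.32 (SE) above that in diploid EpiSC on the log2 scale (edgeR adjusted p = 0.735, with 0.0% of 20583 genes passing, 1578 at an unadjusted p under 0.05, 337 by DESeq2 and 164 by limma). That difference passed without the low-count filter (adjusted p = 0.0298), and it was 3.04 without the female wild-type EpiSC. In the same difference all 8 naive markers were positive, with a median of 4.54 beside 0.18 over all genes, and 0 of them passed.

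Trp53 also differed within single pairs of libraries, which have no replicates. The p53-KO haploid EpiLC had 523 Trp53 counts and the wild-type haploid EpiLC 5518, a normalised ratio of 0.0925 (exact 95% interval 0.0844 to 0.101, counting error only). These libraries also differed in the naive and post-implantation markers given above, which holds for every EpiLC ratio below, and the part of cell state in these ratios was not tested. Of the 11179 genes with at least 100 counts in either EpiLC library, 6.67% were at least 2-fold lower in p53-KO. Both ESC libraries carry the wild-type label, and there the haploid ESC had 570 Trp53 counts and the diploid ESC 6033, a ratio of 0.0759 (0.0696 to 0.0828), with 8.37% of 11770 genes at least 2-fold lower. The naive markers summed to 1010 FPKM in the haploid ESC and 2330 FPKM in the diploid ESC, and the part of this in the ratio was not tested. The gap between wild-type ESC libraries was thus at least as wide as that between EpiLC libraries of different p53 label. The haploid p53-KO lines differed by a ratio of 1.22 (haEpi5 over haEpi1, 1.12 to 1.33).

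Ploidy gave no steadier order of Trp53. Haploid libraries held 12.1, 14.8, 8.0, 87.4 and 7.14 FPKM, and diploid pluripotent libraries 0.514, 8.89, 47.4 and 93.4 FPKM, so that the groups overlapped. The log2 fold change over ploidy, with cell type and p53 label as covariates, was 1.33 ± 2.01 (SE, edgeR adjusted p = 0.965), and no gene passed (0.0% of 18659, 881 at an unadjusted p under 0.05, 39 by DESeq2 and 0 by limma). It turned to -1.30 without p53 label in the fit, -1.22 without the diploid p53-KO EpiSC and -3.76 without the haploid p53-KO EpiSC lines. Ploidy and p53 label cannot be told apart for the haploid EpiSC, since no wild-type haploid or second p53-KO diploid EpiSC library was used here.

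None of the genes around Trp53 had a ratio as low as that of Trp53 in the pairs below. The table has 15 protein-coding genes within 100 kb of Trp53, Wrap53 included, of which 11 averaged at least 1 FPKM. In the diploid p53-KO EpiSC over the mean of the wild-type EpiSC their FPKM ratio had a median of 0.844, from 0.461 for Sox15 to 1.29 for Atp1b2, whereas the ratio of Trp53 was 0.0183. In p53-KO over wild-type EpiLC the neighbours' median was 0.93 (0.379 for Cd68 to 2.14 for Sox15) and the Trp53 ratio 0.0915. In haploid over diploid ESC these were 0.635 (0.226 for Sox15 to 1.81 for Tnfsf12) and 0.0764.

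Wrap53 encodes a protein of Cajal bodies that brings telomerase RNA to telomeres, and in human an antisense transcript from its upstream start has been described as a regulator of p53 RNA. In libraries labelled p53-KO it stood at 11 FPKM in haEpi1, 17.1 FPKM in haEpi5, 13.3 FPKM in the diploid EpiSC and 13.4 FPKM in the EpiLC. In wild-type libraries it stood at 12.6 and 9.82 FPKM in the female and male EpiSC, 14.4 FPKM in the EpiLC, 12.4 and 20.8 FPKM in the haploid and diploid ESC, and 5.42 FPKM in MEF. The labels overlapped throughout, and from the male EpiSC at 9.82 FPKM up to the wild-type EpiLC at 14.4 FPKM the intervals of neighbours in the order overlapped. The ends of this run did not overlap (8.84 to 10.9 and 13.1 to 15.7 FPKM). Wrap53 ratios past counting error were 1.55 (1.38 to 1.76) in haEpi5 over haEpi1, 0.784 (0.684 to 0.900) in male over female EpiSC and 0.595 (0.529 to 0.668) in haploid over diploid ESC. The EpiLC ratio of p53-KO to wild type was 0.946 (0.829 to 1.08). The ratio of Trp53 to Wrap53 FPKM varied mainly with Trp53: it was 0.0385 in the diploid p53-KO EpiSC, 1.10 and 0.864 in haEpi1 and haEpi5 and 0.595 in the p53-KO EpiLC. With the wild-type label it was 0.704 in the female EpiSC, 4.83 in the male EpiSC, 6.09 in the EpiLC, 0.574 in the haploid ESC, 4.50 in the diploid ESC and 6.10 in MEF. Between p53-KO and wild-type pluripotent libraries the log2 fold change of Wrap53 was 0.28 ± 0.32 (SE, edgeR adjusted p = 1), and across the 10 libraries its log2(FPKM + 1) had a Pearson correlation of 0.03 with that of Trp53.

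**Figure D2:**
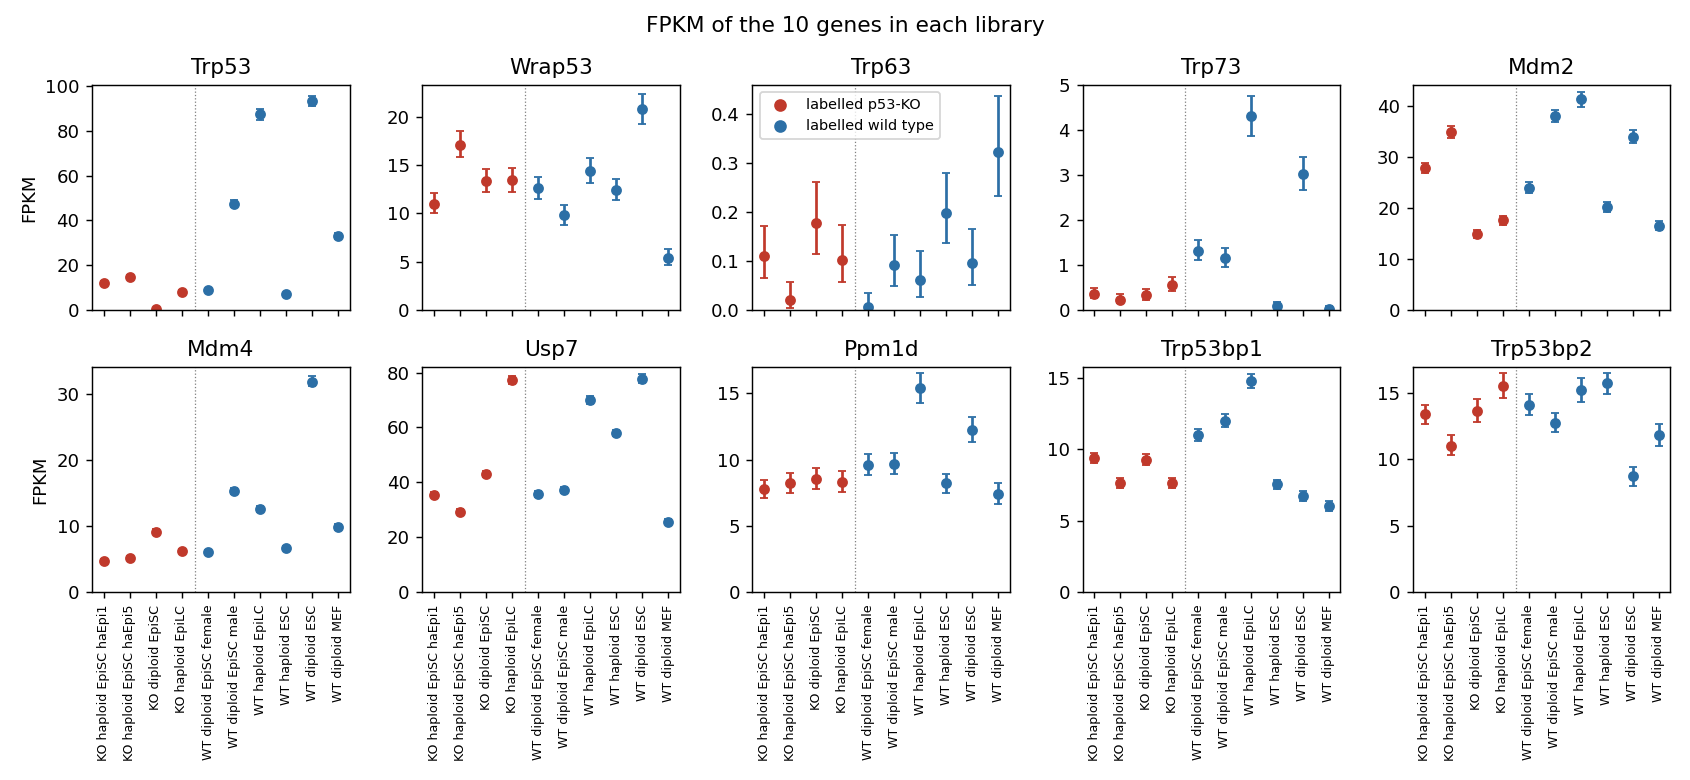
FPKM of the 10 genes in each library on linear axes that start at 0, with 95% Poisson intervals, libraries labelled p53-KO in red to the left of those labelled wild type in blue. The wild-type haploid EpiLC is the highest library for Trp73, Mdm2, Ppm1d and Trp53bp1, and the diploid ESC for Trp53, Wrap53, Mdm4 and Usp7.

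The paralogues p63 and p73 share the DNA-binding fold of p53 and are best known for roles in epithelial and neural development. Trp63 (chr16:25683763-25892102, plus strand) was near the limit of detection: in libraries labelled p53-KO it had 19 and 3 counts in haEpi1 and haEpi5, 25 in the diploid EpiSC and 14 in the EpiLC, or 0.0199 to 0.177 FPKM. In wild-type libraries it had 1 count in the female EpiSC, 14 in the male EpiSC, 8 in the EpiLC, 33 and 13 in the haploid and diploid ESC, and 41 in MEF, or 0.00635 to 0.323 FPKM. The intervals of all neighbours in the order of the 10 libraries overlapped. Those of the lowest library, the female EpiSC (0.000161 to 0.0354 FPKM), and the highest, MEF (0.232 to 0.438 FPKM), did not. Markers of squamous epithelium, where p63 is a defining factor, summed to 0.266 to 7.03 FPKM in the pluripotent libraries and 11.3 FPKM in MEF.

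Trp73 (chr4:154056253-154140208, minus strand) was low but measurable in most libraries. In libraries labelled p53-KO it stood at 0.360 FPKM in haEpi1, 0.231 FPKM in haEpi5, 0.333 FPKM in the diploid EpiSC and 0.559 FPKM in the EpiLC. With the wild-type label it stood at 1.32 and 1.16 FPKM in the female and male EpiSC, 4.31 FPKM in the EpiLC, 0.0915 FPKM in the haploid ESC, 3.02 FPKM in the diploid ESC and 0.0239 FPKM (2 counts) in MEF. Within EpiSC and within EpiLC every library labelled p53-KO was below every wild-type one, and the haploid ESC, labelled wild type, was lower than all 4. The share of all genes that show this order was not counted. Trp73 had a log2 fold change of -2.05 ± 0.56 (SE, unadjusted p = 0.00885, edgeR adjusted p = 0.976) in haploid p53-KO over wild-type EpiSC and of -1.89 ± 0.72 (SE, unadjusted p = 0.0371, edgeR adjusted p = 1) in diploid p53-KO over wild-type EpiSC. Over the 9 pluripotent libraries it was -1.53 ± 1.13 (SE, edgeR adjusted p = 1). That value was -0.62 without the diploid p53-KO EpiSC, -0.19 without the p53-KO EpiLC, -0.18 without the wild-type EpiLC and -2.33 without either ESC. The EpiLC ratio of p53-KO to wild type was 0.131 (0.0956 to 0.177), from 50 and 372 counts, and the ratio of haploid to diploid ESC was 0.0301 (0.0143 to 0.0562), from 10 and 267 counts. These intervals cover counting error in single libraries. The antisense gene Trp73os shares 280 exon bases with Trp73 and held 6 counts in all libraries together.

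**Figure D3:**
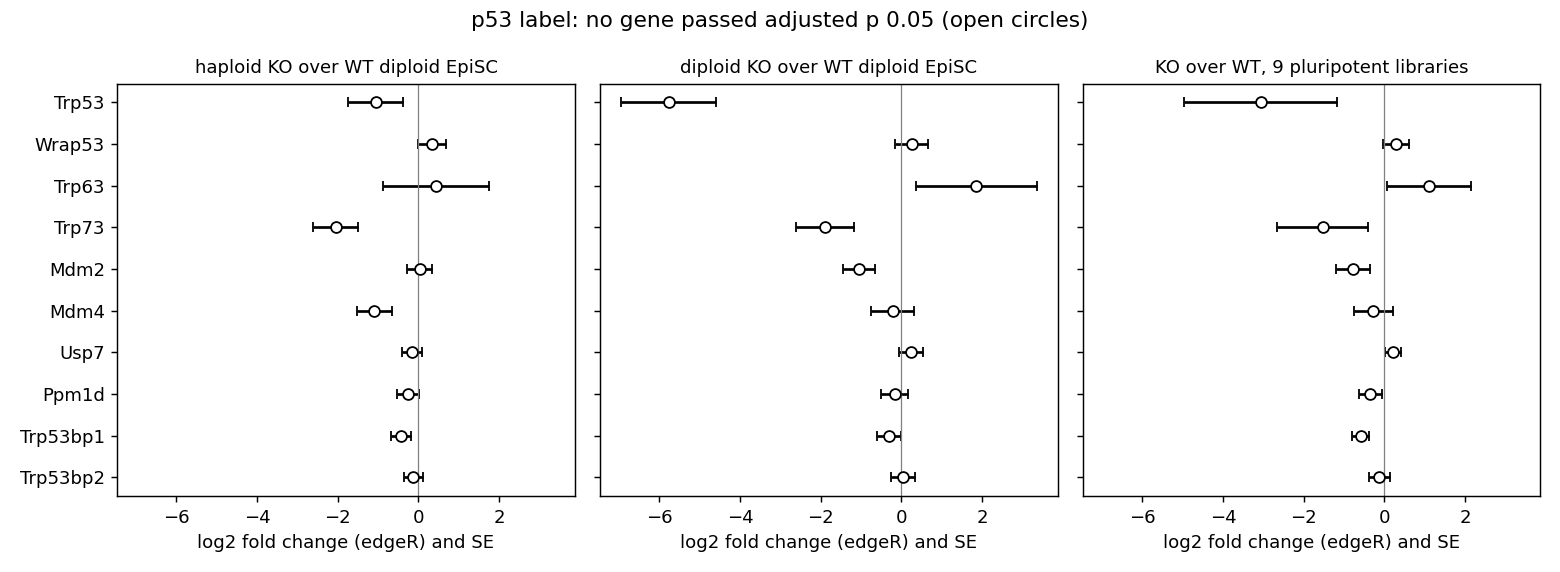
Log2 fold change with its standard error (edgeR) for the 10 genes, from left to right for haploid p53-KO over wild-type diploid EpiSC, diploid p53-KO over wild-type diploid EpiSC, and p53-KO over wild type in the 9 pluripotent libraries. Open circles did not pass an adjusted p of 0.05, which is all of them, and Trp53 in the diploid p53-KO EpiSC lies farthest from 0 at -5.77.

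Mdm2 (chr10:117688875-117710758, minus strand) was among the more abundant members. It stood at 27.9 FPKM in haEpi1, 34.9 FPKM in haEpi5, 14.9 FPKM in the diploid p53-KO EpiSC and 17.6 FPKM in the p53-KO EpiLC. In wild-type libraries it stood at 24.0 and 38.0 FPKM in the female and male EpiSC, 41.3 FPKM in the EpiLC, 20.2 and 33.9 FPKM in the haploid and diploid ESC, and 16.5 FPKM in MEF. The diploid EpiSC and the EpiLC labelled p53-KO were lower than every wild-type pluripotent library, while haEpi1 and haEpi5 lay inside the wild-type range. For Mdm4 and Usp7, too, 2 p53-KO libraries lay below every wild-type pluripotent library, but these were haEpi1 and haEpi5. Over all genes such an order was not counted. The log2 fold change of Mdm2 was -1.05 ± 0.39 (SE, unadjusted p = 0.0321, edgeR adjusted p = 1) in diploid p53-KO over wild-type EpiSC, 0.03 ± 0.30 (SE, edgeR adjusted p = 0.999) in haploid p53-KO over wild-type EpiSC, and 1.08 ± 0.39 (SE, unadjusted p = 0.0295, edgeR adjusted p = 0.868) in haploid over diploid p53-KO EpiSC. Over the 9 pluripotent libraries it was -0.78 ± 0.42 (SE, edgeR adjusted p = 1). Without the male wild-type EpiSC the value in diploid p53-KO EpiSC was -0.68. With 1 library left out the value over the 9 libraries ran from -1.12 (without either ESC) to -0.40 (without the diploid p53-KO EpiSC), and it was -0.46 without either EpiLC. The EpiLC ratio of p53-KO to wild type was 0.430 (0.404 to 0.458), and that of haploid to diploid ESC 0.592 (0.559 to 0.627). Mdm2 RNA was 28.9 times Trp53 RNA per length in the diploid p53-KO EpiSC and 2.19 to 2.36 times in the other libraries labelled p53-KO, against 0.363 times in the diploid ESC and 2.83 times in the haploid ESC at the ends of the wild-type pluripotent range.

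Cdkn1a, the cell-cycle inhibitor p21 and the best-known p53 target, was lowest in the same 2 libraries as Mdm2 among the pluripotent ones. It is named here after its values were seen. It stood at 1.17 FPKM in the diploid p53-KO EpiSC and 3.33 FPKM in the p53-KO EpiLC, but at 19.4 and 28.1 FPKM in haEpi1 and haEpi5, against 19.4 and 44.0 FPKM in the female and male wild-type EpiSC and 29.0 to 61.0 FPKM in the other wild-type pluripotent libraries. Of a list of 30 p53 targets, Mdm2 among them, 0 passed the edgeR test over the 9 pluripotent libraries, where 0.0% of 18659 genes did. With p53-KO over wild type, 27 of the 30 had a negative log2 fold change and the median was -0.67, beside -0.01 over all genes tested. In diploid p53-KO over wild-type EpiSC 27 of 30 were negative and the median was -0.78, beside -0.07. In haploid p53-KO over wild-type EpiSC 21 were negative and the median was -0.30, beside -0.01. In both of these 0 of the 30 passed, where 0.0% of 18153 genes did. The share of all genes with a negative value was not counted.

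Mdm4 (chr1:132959484-133030561, minus strand) had 4.76 and 5.15 FPKM in haEpi1 and haEpi5, 9.13 FPKM in the diploid p53-KO EpiSC and 6.2 FPKM in the p53-KO EpiLC. With the wild-type label it had 6.06 and 15.3 FPKM in the female and male EpiSC, 12.6 FPKM in the EpiLC, 6.65 and 31.9 FPKM in the haploid and diploid ESC, and 9.87 FPKM in MEF. Its range of 6.70-fold was wider than the 2.77-fold of Mdm2, and only Trp53 and the sparsely counted paralogues varied more. Its lowest libraries were the haploid p53-KO EpiSC, with a log2 fold change of -1.10 ± 0.43 (SE, unadjusted p = 0.0408, edgeR adjusted p = 0.976) against wild-type diploid EpiSC. That value was -0.29 without the male wild-type EpiSC and -1.62 without the female. Over ploidy the log2 fold change was -1.26 ± 0.46 (SE, unadjusted p = 0.0267, edgeR adjusted p = 0.939), and it was -0.67 without the haploid ESC and -0.68 without the diploid ESC. The haploid ESC had 0.207 times the diploid ESC level (0.197 to 0.218) and the p53-KO EpiLC 0.498 times that of the wild-type EpiLC (0.467 to 0.530). Per length, in FPKM, Mdm2 exceeded Mdm4 in every library, by 5.85 and 6.77 times in haEpi1 and haEpi5, 1.63 times in the diploid p53-KO EpiSC and 2.83 times in the p53-KO EpiLC, against 1.06 times in the diploid ESC to 3.96 times in the female EpiSC among the wild-type pluripotent libraries. This rests on gene lengths of 5083 bases for Mdm2 and 14798 for Mdm4. In counts Mdm4 was the higher in the diploid ESC (7546 against 2754), MEF, the diploid p53-KO EpiSC, the male EpiSC and the p53-KO EpiLC. Mdm2 had more counts in the other libraries.

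Usp7 (chr16:8689595-8792308, minus strand) encodes the protease that removes ubiquitin from Mdm2 and p53. It was lower in each EpiSC library than in each EpiLC and ESC library, while its levels overlapped between p53 labels. Its levels in EpiSC were 35.4 and 29.3 FPKM in haEpi1 and haEpi5, 43.0 FPKM in the diploid p53-KO library, and 35.7 and 37.1 FPKM in the female and male wild-type libraries. In EpiLC it had 77.3 FPKM with the p53-KO label and 69.9 FPKM with the wild-type label, in ESC 58.0 FPKM in the haploid and 77.8 FPKM in the diploid library, and in MEF 25.6 FPKM. No EpiSC library overlapped an EpiLC or ESC library, and the share of all genes for which this holds was not counted. No ESC library carries the p53-KO label, so cell type and label are partly tied. Usp7 was lower in EpiSC than in ESC, with 36.1 ± 4.90 FPKM against 67.9 ± 14.0 FPKM (SD, n = 5 and n = 2) and a log2 fold change of -0.88 ± 0.21 (SE, edgeR adjusted p = 0.0209). It was also lower in EpiSC than in EpiLC, where it averaged 73.6 ± 5.24 FPKM (SD, n = 2), with a log2 fold change of -1.02 ± 0.21 (SE, edgeR adjusted p = 0.0180). These calls sit on a high background: 16.9% of 21104 genes passed in EpiSC against ESC (10.1% as lower) and 9.65% in EpiSC against EpiLC (5.88% as lower), and 1 of the 10 members passed in each.

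The calls of Usp7 rested on few libraries. Against ESC the log2 fold change was -0.64 (edgeR adjusted p = 0.164) without the diploid ESC, and against EpiLC it was -0.91 (adjusted p = 0.0966) without the p53-KO EpiLC and -1.07 (adjusted p = 0.0524) without the wild-type EpiLC. With wild-type libraries alone it was -0.83 (adjusted p = 0.226) against ESC and -0.89 (adjusted p = 0.422) against EpiLC by edgeR. Over p53 label, Usp7 had a log2 fold change of 0.22 ± 0.20 (SE, edgeR adjusted p = 1) in the 9 pluripotent libraries, and the EpiLC ratio of p53-KO to wild type was 1.12 (1.09 to 1.15).

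**Figure D4:**
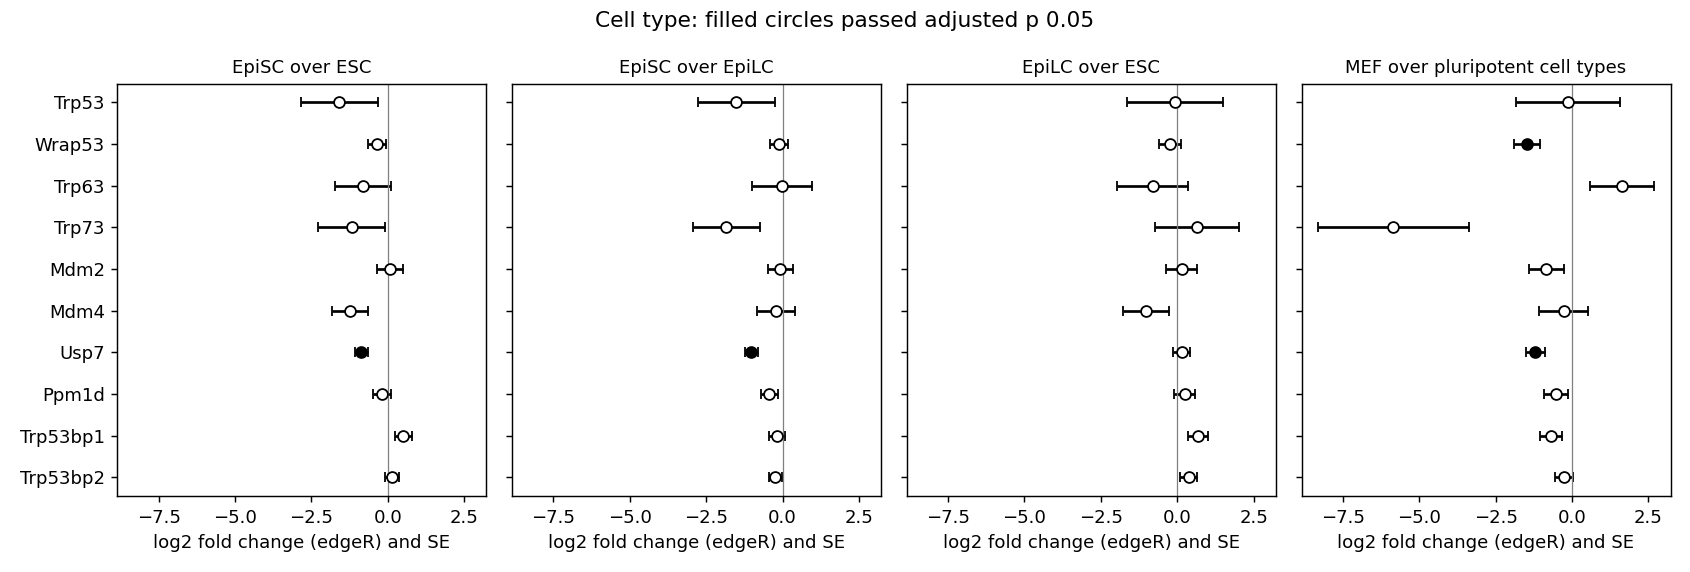
Log2 fold change with its standard error (edgeR) for the 10 genes between cell types, from left to right EpiSC over ESC, EpiSC over EpiLC, EpiLC over ESC, and MEF over the mean of the pluripotent cell types. Filled circles passed an adjusted p of 0.05: Usp7 in EpiSC over ESC at -0.88 and over EpiLC at -1.02, and Usp7 at -1.21 and Wrap53 at -1.47 in MEF.

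Between the other cell types few members passed. In EpiLC over ESC 0 of 10 members passed, where 0.426% of 21104 genes did. In EpiSC over ESC Mdm4 had a log2 fold change of -1.24 ± 0.59 (SE, edgeR adjusted p = 0.184), which passed without the low-count filter (adjusted p = 0.0437). It was -1.98 without the haploid ESC and 0.33 without the diploid ESC, each of which leaves 1 ESC library. Trp53 had -1.58 ± 1.25 (SE, edgeR adjusted p = 0.428) in EpiSC over ESC and -1.51 ± 1.26 (SE, edgeR adjusted p = 0.466) in EpiSC over EpiLC, and the ESC and EpiLC groups each held 1 low library (7.14 and 8.0 FPKM) and 1 high library (93.4 and 87.4 FPKM).

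In the MEF library 2 of 10 members passed, both lower, where 26.1% of 21104 genes passed and 10% passed as lower. Usp7 stood at 25.6 FPKM in MEF, against 29.3 to 77.8 FPKM in the pluripotent libraries (log2 fold change -1.21 ± 0.31 (SE), edgeR adjusted p = 0.0185). Wrap53 stood at 5.42 FPKM in MEF, against 9.82 to 20.8 FPKM (log2 fold change -1.47 ± 0.44 (SE), edgeR adjusted p = 0.0331). Neither passed with wild-type libraries alone (adjusted p = 0.0989 for Usp7 and 0.147 for Wrap53), and the single MEF library was assumed to vary like the other groups. Trp73, with 2 counts in MEF, did not pass with edgeR (adjusted p = 0.109) but did with DESeq2 (adjusted p = 0.00329) and with edgeR without the low-count filter (adjusted p = 0.0150).

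Ppm1d (chr11:85311244-85347066, plus strand), which encodes the phosphatase Wip1 that takes phosphate off p53 and damage kinases and is itself a p53 target, varied least among the regulators. In libraries labelled p53-KO it stood at 7.79 and 8.22 FPKM in haEpi1 and haEpi5, 8.54 FPKM in the diploid EpiSC and 8.33 FPKM in the EpiLC. In wild-type libraries it stood at 9.59 and 9.68 FPKM in the female and male EpiSC, 15.4 FPKM in the EpiLC, 8.20 and 12.2 FPKM in the haploid and diploid ESC, and 7.40 FPKM in MEF. All 4 p53-KO values lay below those of the wild-type EpiSC and EpiLC and of the diploid ESC, and so did the haploid ESC and MEF. How many of all genes show such an order was not counted. The log2 fold change over p53 label was -0.35 ± 0.28 (SE, edgeR adjusted p = 1), and the EpiLC ratio of p53-KO to wild type was 0.547 (0.484 to 0.616).

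Trp53bp1 (chr2:121193281-121271407, minus strand) encodes 53BP1, a chromatin protein that gathers at double-strand breaks. In libraries labelled p53-KO it stood at 9.39 and 7.61 FPKM in haEpi1 and haEpi5, 9.26 FPKM in the diploid EpiSC and 7.67 FPKM in the EpiLC. With the wild-type label it stood at 11 and 12 FPKM in the female and male EpiSC, 14.8 FPKM in the EpiLC, 7.54 and 6.72 FPKM in the haploid and diploid ESC, and 6.02 FPKM in MEF. Every p53-KO library was below the wild-type libraries of the same cell type, but over the 9 pluripotent libraries the labels overlapped. The share of all genes that show the same order within cell types was not counted. The log2 fold change was -0.59 ± 0.22 (SE, unadjusted p = 0.0270, edgeR adjusted p = 1) over the 9 pluripotent libraries. It was -0.39 without either EpiLC. Tubgcp4 on the opposite strand shares 2130 exon bases with Trp53bp1 and held 5452 counts in all libraries together, so part of either gene's reads may belong to the other.

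Trp53bp2 (chr1:182409172-182462432, plus strand), which encodes ASPP2, a p53-binding protein known to favour its pro-apoptotic targets, was the steadiest member. Its levels ran from 11 to 15.5 FPKM in libraries labelled p53-KO and from 8.69 FPKM in the diploid ESC to 15.7 FPKM in the haploid ESC in wild-type pluripotent libraries, with 11.8 FPKM in MEF. The log2 fold change over p53 label was -0.13 ± 0.26 (SE, edgeR adjusted p = 1). The haploid ESC had 1.79 times the diploid ESC level (1.63 to 1.98).

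Beyond the members, 35 further regulators of p53 were counted, among them kinases, acetyltransferases, ubiquitin ligases and deubiquitinases. Over p53 label 0 of 35 passed edgeR in each of the comparisons above, where 0.0% of all genes did. In the 9 pluripotent libraries 16 were higher and 19 lower, with a median log2 fold change of -0.06 beside -0.01 over all genes tested. In EpiSC over ESC 4 of 35 passed, where 16.9% of all genes did. Setd7, a lysine methyltransferase, rose, with a log2 fold change of 1.86 ± 0.48 (SE, edgeR adjusted p = 0.0271). On the same scale Sirt1, a deacetylase of p53, fell by 1.08 ± 0.24 (adjusted p = 0.0153), Trim24, a ubiquitin ligase, by 0.83 ± 0.20 (adjusted p = 0.0187) and Daxx, which binds Mdm2 and Usp7, by 0.65 ± 0.18 (adjusted p = 0.0354). The list's median was -0.05 beside -0.02 over all genes. Each call was lost when 1 library was left out: Setd7 without the diploid p53-KO EpiSC (1.80, edgeR adjusted p = 0.0514), Sirt1 without the diploid ESC (-1.06, adjusted p = 0.0780) and Trim24 without the haploid ESC (-0.65, adjusted p = 0.112). Daxx lost its call without haEpi1, either wild-type EpiSC, the diploid p53-KO EpiSC or either ESC (edgeR adjusted p = 0.0612 to 0.118). The size for Setd7 rested on the ESC libraries: it was 3.33 without the haploid ESC and 1.11 without the diploid ESC, each of which leaves 1 ESC library. With wild-type libraries alone none of these passed (adjusted p = 0.209 to 0.263).

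In EpiSC over EpiLC 4 of 35 passed, all lower, where 9.65% of all genes passed and the list's median was -0.42 beside 0.01. Usp28, a deubiquitinase, fell by 1.25 ± 0.25 in log2 units (SE, adjusted p = 0.0159 by edgeR), Sirt1 by 0.98 ± 0.24 (adjusted p = 0.0349), Rnf34, a ubiquitin ligase, by 0.85 ± 0.19 (adjusted p = 0.0235) and Daxx by 0.73 ± 0.18 (adjusted p = 0.0347). Usp28 lost its call without the p53-KO EpiLC (-1.34, edgeR adjusted p = 0.0625) or the wild-type EpiLC (-1.12, adjusted p = 0.0929), and Rnf34 without haEpi1 (-0.83, adjusted p = 0.0583) or the p53-KO EpiLC (-0.61, adjusted p = 0.169). Sirt1 stood at -0.54 without the p53-KO EpiLC (edgeR adjusted p = 0.292), and missed the threshold without haEpi1, haEpi5, the male wild-type EpiSC or the diploid p53-KO EpiSC (0.0583 to 0.0695). Daxx missed it without haEpi1 or without any 1 of the other EpiSC apart from haEpi5, and without either EpiLC (0.0597 to 0.134). With wild-type libraries alone none of these passed (edgeR adjusted p = 0.393 to 0.622).

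In EpiLC over ESC 0 of 35 regulators passed, with a median of 0.30 beside -0.05 over all genes. In MEF 8 of 35 passed, all lower, where 26.1% of all genes passed and the list's median was -0.45 beside -0.20, and those farthest from 0 were the checkpoint kinases Chek2, which fell by 2.36 ± 0.63 (SE, edgeR adjusted p = 0.0222), and Chek1, by 2.14 ± 0.35 (adjusted p = 0.00209). Npm1, a nucleolar protein, fell by 1.78 ± 0.54 (edgeR adjusted p = 0.0356) and Trim24 by 1.70 ± 0.30 (adjusted p = 0.00326). Npm1 missed the threshold without haEpi1 or either wild-type EpiSC (0.0516 to 0.0527). With wild-type libraries alone neither Chek2 (-2.35, edgeR adjusted p = 0.0781) nor Npm1 (-1.84, adjusted p = 0.0904) passed.

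**Figure D5:**
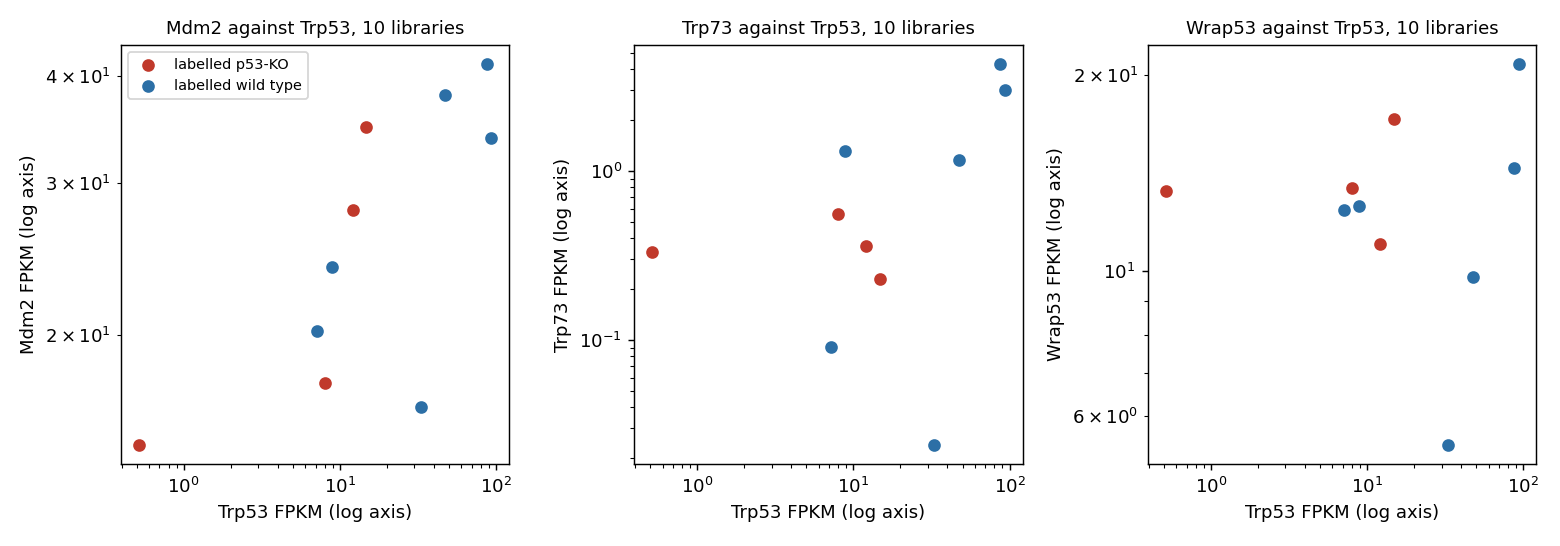
FPKM of Mdm2, Trp73 and Wrap53 against Trp53 on log axes, 1 point per library, libraries labelled p53-KO in red and wild type in blue. At the lowest and highest Trp53 levels (0.514 and 93.4 FPKM) Mdm2 stands at 14.9 and 33.9 FPKM, Trp73 at 0.333 and 3.02 FPKM, and Wrap53 at 13.3 and 20.8 FPKM.

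Across the 10 libraries, which share normalisation and cell type, the log2(FPKM + 1) of Mdm2 had a Pearson correlation of 0.73 with that of Trp53, Trp73 0.65, Mdm4 0.63, Ppm1d 0.62, Usp7 0.19, Trp53bp1 0.14, Trp63 -0.14 and Trp53bp2 -0.45. Among 7792 genes averaging at least 5 FPKM, the patterns most like that of Trp53 were those of Fbxw9 (0.932), Eda2r (0.927), Bax (0.913), Fau (0.912) and Trp53inp1 (0.907). Those most like that of Wrap53 were Glo1 (0.961), BC030867 (0.961), Poc1a (0.960), Psmb3 (0.943) and Mrpl28 (0.931). These are descriptions over 10 libraries of 4 cell types, and on the scale of log2 CPM 2 of the 5 genes named for Trp53 were again among the top 5. On that scale the correlation with Trp53 was 0.69 for Mdm2, 0.53 for Mdm4, 0.51 for Ppm1d and 0.41 for Trp73.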

How the data were processed

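Poly(A) RNA of ESC, EpiSC, EpiLC and MEF was made into libraries with a NEBNext Ultra kit, per the labels' protocols. Per gene, the deposited counts are whole numbers that came from HISAT2 2.0.5 and featureCounts 1.5.0-p3 on mm10, per the submitters' processing notes. For genes above 20 counts, dividing the count by gene length and a library constant gave the deposited FPKM to within a relative 1.7e-08.

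Tests on counts used edgeR 4.0.16 under R 4.3.3 (filterByExpr, TMM, quasi-likelihood F test, Benjamini-Hochberg over all genes tested, threshold 0.05) in 4 fits: the 5 EpiSC libraries by group, the 9 pluripotent libraries by cell type, p53 label and ploidy, the same 9 by group, and all 10 by cell type. A group with 1 library borrows its spread from the other groups. Standard errors were obtained from the log2 fold change and its F statistic. Alternatives were DESeq2 1.42.0, limma 3.58.1 on log2(FPKM + 1) for genes of at least 1 FPKM, DESeq2 size factors, no low-count filter, other covariates and leaving out each library. The fits were also run on simulated counts with the same spread for every gene, which cannot show how they perform on these libraries. Single pairs were given as ratios of TMM-normalised counts. No 2 libraries were alike: over genes, chi-square per degree of freedom was at least 38.89 for every pair. The lowest value was that of haEpi1 and the female wild-type EpiSC, which differ in p53 label and ploidy. The only libraries that share a group are haEpi1 with haEpi5, which are different lines, and the female with the male wild-type EpiSC. In the fits by group the spread behind each p-value is therefore that between lines and between sexes. In the fit by cell type alone, libraries unlike in p53 label or ploidy were treated as replicates, which adds to the spread. How much of the spread is technical was not measured, since no line was sequenced again.

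The 10 members, the lists of 35 regulators and 30 targets and the tests were chosen with earlier results of these data known. Named genes were the members in every library, and from each list up to 4 genes past the threshold with the largest absolute log2 fold change per comparison. Promoter sequences are those of RefSeq, GRCm38.p6, where 9 of the 10 members had a window.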

Additional observations from a re-analysis of the deposited data

Results flagged for a closer look

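In each set of 4 to 10 libraries, the library at either end was checked for a gap to its nearest neighbour that is wide for the range. Of 60 sets of a gene and a group, 6 were flagged, where chance flags about 1 in 20 of independent sets. The sets share libraries, and 5 of the flags fall on 1 library, so these rates cannot be compared. Among the 5 haploid libraries the wild-type haploid EpiLC stood far above the other haploid libraries for 5 genes, at 87.4 FPKM of Trp53, 4.31 FPKM of Trp73, 12.6 FPKM of Mdm4, 15.4 FPKM of Ppm1d and 14.8 FPKM of Trp53bp1. The other haploid libraries held at most 14.8 FPKM of Trp53, 0.559 FPKM of Trp73, 6.65 FPKM of Mdm4, 8.33 FPKM of Ppm1d and 9.39 FPKM of Trp53bp1. It is the only haploid library that is wild type and EpiLC, and the one with the smallest TMM factor, and the part of either was not tested. Among the 9 pluripotent libraries the diploid ESC stood far above the rest for Mdm4, at 31.9 FPKM, with the next library at 15.3 FPKM.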

How the results depend on the processing

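Genes past the threshold, 0 in the main test of the haploid p53-KO against wild-type EpiSC, the diploid p53-KO against wild-type EpiSC, the haploid against diploid p53-KO EpiSC, p53-KO against wild-type pluripotent, haploid against diploid pluripotent and the difference of p53-KO effects, numbered 136, 242, 377, 43, 63 and 549 without the low-count filter and 22, 135, 268, 25, 39 and 337 with DESeq2. Leaving out 1 library gave 0 to 144, 0 to 152, 0 to 224, 0, 0 to 1 and 0 to 309. With all 10 libraries in the fit there was 1 gene for the diploid p53-KO against wild-type EpiSC and 1 for the haploid against diploid p53-KO EpiSC, and limma found 164 for the difference of effects.

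Between cell types the main counts were 3573 for EpiSC over ESC, 90 for EpiLC over ESC, 2036 for EpiSC over EpiLC and 5503 for MEF. Leaving out 1 library gave 1626 to 3569, 1 to 216, 554 to 2631 and 4759 to 6014. Without the low-count filter there were 676 for EpiLC over ESC and 3162 for EpiSC over EpiLC, with DESeq2 952 and 3622, and with limma 310 for EpiLC over ESC. With p53 label and ploidy as covariates there were 2239 for EpiSC over ESC, 28 for EpiLC over ESC and 1297 for EpiSC over EpiLC. With wild-type libraries only, an alternative added after seeing the data, there were 70, 0, 0 and 1851 in the order above.

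The log2 fold change of Trp53 in diploid p53-KO over wild-type EpiSC passed without the low-count filter (-5.75) and with DESeq2 (-5.77), and ran from -6.52 to -4.10 with 1 library left out. In haploid over diploid p53-KO EpiSC it passed at 4.68 and 4.70 in these settings, and ran from 4.56 to 4.84. In haploid p53-KO over wild-type EpiSC it ran from -1.81 to 0.60, over p53 label from -4.62 to -0.91, and over ploidy from -1.22 to 3.81. Over ploidy it reversed to -1.30 without the p53 label and, in an alternative added after seeing the data, to -3.76 without the haploid p53-KO EpiSC lines. The difference of p53-KO effects passed at 2.32 without the low-count filter and ran from 0.66 to 3.04 with 1 library left out. By total counts the Trp53 ratio was 0.108 in EpiLC and 0.0844 in ESC, and the Wrap53 ratio in EpiLC was 1.11 in place of 0.946. In EpiSC over ESC with 1 library left out, Mdm4 ran from -1.98 to 0.33 and Trp53 from -2.48 to 1.27, both positive without the diploid ESC. In EpiSC over EpiLC Trp53 ran from -2.39 to 1.09, positive without the wild-type EpiLC. Of 35 gene values past the threshold, 2 stayed past it in every alternative. The cause of these changes was not tested, apart from the fewer libraries of the smaller fits.

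No paired analysis was possible because the labels give no replicate numbers shared between groups. Depth limits Trp63 and, in MEF, Trp73, at 1 to 41 and 2 counts.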
